A study of Vitis vinifera with 171 samples.

Results

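Ripe berries of one grapevine clone were compared between the 2007 and the 2008 growth year. The comparison holds 24 of the 171 arrays of the series, namely the harvest arrays of the vineyards AM, CS, MN and PSP. Each vineyard contributed 3 arrays in each year, lettered A, B and C, so that 12 arrays stand for 2007 and 12 for 2008. The arrays were selected by their labels for vineyard, growth year and stage. All 24 hold RNA of the berry pericarp, the flesh and skin without seeds, of Vitis vinifera cv Corvina clone 48 grown near Verona. AM (Soave area) and CS (Bardolino area) were trained on a parral, an overhead trellis, and MN and PSP (both Valpolicella) by the Guyot system of vertical shoots. The 2007 season had an unusually warm spring, and the sampling days were shifted in each year so as to reach a similar phase of development. The same vineyards were also sampled at veraison, when the berry softens and begins to ripen, and at mid-ripening.

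A ripening grape berry stops photosynthesis, softens its cell walls and loads sugar. Late in ripening the skin and flesh make pathogenesis-related proteins, which are small defence proteins of the PR1, PR10, thaumatin and osmotin families. Stilbene synthases, which form resveratrol, and terpene synthases, which form volatile sesquiterpenes such as germacrene D, are also active in the ripe berry. Genes that are on in green berries, among them those of photosystem subunits and polyphenol oxidases, are turned down over the same time.

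Expression was the log2 of the mean fluorescence intensity of the probes of a gene, 4 in nearly every one of 29545 probe sets, and the 3 arrays of a vineyard and year were averaged. Differences are given as 2007 minus 2008 on this log2 scale. The test was limma on the 8 vineyard means, paired by vineyard, and a gene was called at an adjusted p below 0.05 over all probe sets. Arrays of a triplicate correlated at 0.971 to 0.9954, with a median SD of 0.18 over probe sets. The share of probe sets brighter than 95% of the random control probes of the array was 69.1% to 79.9% in 2007 and 69.8% to 79.0% in 2008. No slide held arrays of both 2007 and 2008, so that slide and growth year cannot be told apart. The p-values measure the spread between 4 vineyards, each sampled once in a year.

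Of the 29545 probe sets, 1087 (3.68%) were called between the years at harvest. In 2007, 512 (1.73%) were higher and 575 (1.95%) were lower, and every one of them had the same sign in all 4 vineyards. The called sets that were higher in 2007 had a median difference of 1.31 (range, 0.87 to 3.74), and those that were lower had a median of -1.52 (range, -0.86 to -4.49). Over all probe sets the median absolute difference was 0.314 and the median difference 0.03. For 491 of the called sets, no array of one year reached into the range of the other year. All 12 arrays of 2007 lay above all 12 of 2008 in 550 probe sets (1.86%) and below them in 536 (1.81%). The number of calls rested on all 4 vineyards. Without AM it was 23, without CS 108, without MN 47 and without PSP 768, and without the arrays lettered B it was 517. At a threshold of 0.01 it was 22. In data simulated at this size, 41 of 100 genes changed by 2 on the log2 scale were recovered and 0 of 100 changed by 1. Far fewer genes were changed there than reached an unadjusted p below 0.05 here (6910, limma), which makes the adjustment stricter. Differences as small as 0.87 and -0.86 were called here. The simulation therefore does not give the sensitivity of this comparison, which was not tested.

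The values carry probe numbers only, and 5239 probe sets could be given an identifier through their expression profiles. Among these were 258 called sets (4.92%), 69 higher and 189 lower in 2007. Some of the datasets used for naming were themselves chosen for differences between growth years. Of these, a list specific to the years other than 2007 gave 1206 matches, and a group low in 2007 at veraison gave 356. The other groups at veraison, among them the one higher in 2007, gave 0. Falls were thus easier to name than rises, which bears on the counts in the gene lists below. Of the 3950 sets that also appear elsewhere, 4.46% were called. The genes named below come from the 5239 sets with an identifier, so the sets with the largest differences, 3.74 and -4.49, go unnamed. Near-identical members of a tandem family, such as the germacrene D synthases, the stilbene synthases and the PR1 genes, may share signal on the array and are uncertain as single genes.

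The genes that mark the ripe berry were lower in 2007. Of 83 positive ripening markers with an identifier, which the study chose for their rise during ripening in 2008, 52 fell and 0 rose (all probe sets, 1.95% and 1.73%). Their median difference was -1.92, against 0.03 over all probe sets, and 69 of the 83 were lower in all 4 vineyards, where 14.3% of all probe sets were. Of 65 negative ripening markers, chosen for their decline in 2008, 24 rose and 0 fell. The median of the negative markers was 1.26, and 48 were higher in all 4 vineyards, where 18% of all probe sets were. Both lists were drawn up on the 2008 arrays, which include those compared here, and are no independent evidence of the direction. Many of their members recur in the gene lists below, where their calls are not separate evidence. Of 75 constitutive genes, which the study selected for their steady level in 2008, 0 were called and the median was -0.01. The counts of calls depended on single vineyards. The positive markers kept 8 calls without AM, 27 without CS, 10 without MN, 42 without PSP and 34 without replicate B, and the negative markers kept 0, 1, 1 and 22 without AM, CS, MN and PSP. The medians stayed between -2.08 and -1.73 for the positive and between 1.11 and 1.41 for the negative markers in these runs.

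**Figure D1:**
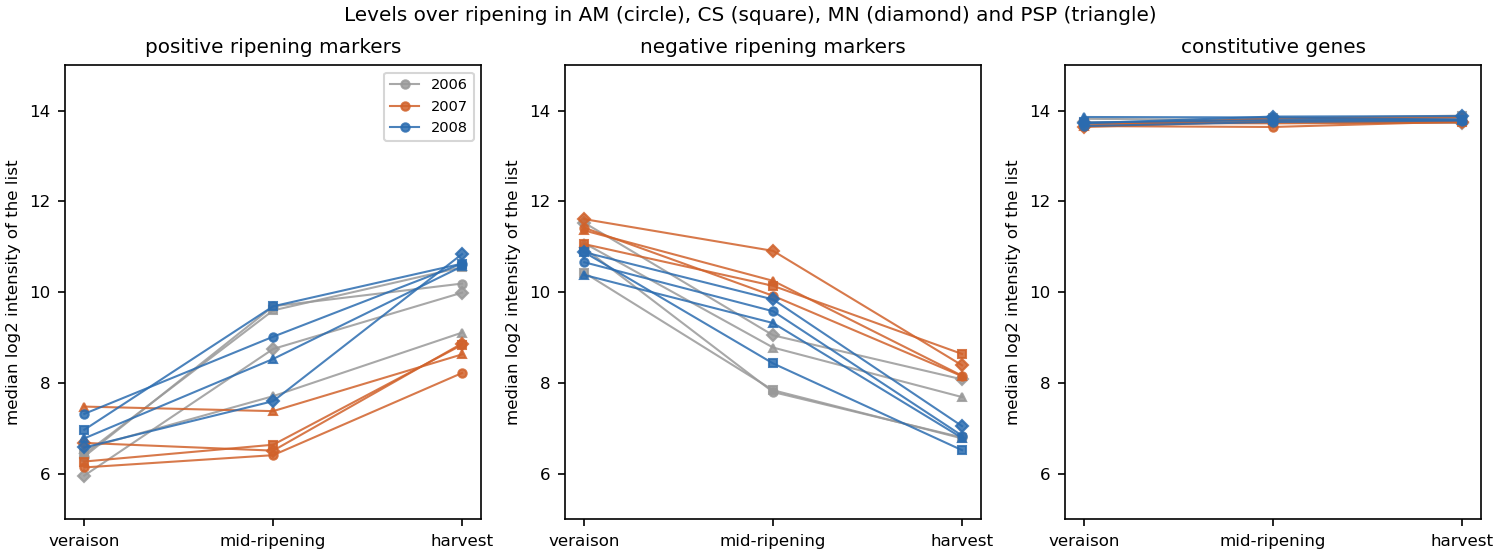
Median log2 intensity of 3 gene lists at veraison, mid-ripening and harvest in vineyards AM, CS, MN and PSP, with 1 line per vineyard and growth year (2006 grey, 2007 orange, 2008 blue). At harvest the orange lines lie lowest for the positive ripening markers, at 8.22 to 8.87, and highest for the negative ripening markers, at 8.15 to 8.64, while the constitutive genes overlap.

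Vineyard by vineyard, the median level of the positive ripening markers at harvest was 8.22 in AM, 8.84 in CS, 8.87 in MN and 8.63 in PSP in 2007. In 2008 the same list stood at 10.63, 10.63, 10.84 and 10.57, and the ranges of the years did not overlap. In 2006 the positive ripening markers stood at 10.19, 10.55 and 9.99 in AM, CS and MN and at 9.11 in PSP, above every 2007 level and below every 2008 level. The difference between 2007 and 2008 was already present at mid-ripening, with a list median of -1.48, and was -0.02 at veraison. For the negative ripening markers, the harvest levels were 8.15 in AM, 8.64 in CS, 8.39 in MN and 8.16 in PSP in 2007. The negative ripening markers stood at 6.84, 6.52, 7.05 and 6.79 in 2008, again without overlap. Their list median of the year difference was 0.48 at veraison and 0.76 at mid-ripening. In pericarp RNA, fewer cells that express a gene and less of its RNA per cell cannot be told apart.

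Defence proteins of the ripe berry were lower in 2007. VIT_03s0088g00700, a PR1 gene, ranged from 7.61 to 11.9 (median, 9.53) over the 12 arrays of 2007 and from 12.47 to 14.46 (median, 13.65) over those of 2008. Every array of 2007 lay below every array of 2008. Its mean difference was -3.68 ± 0.46 (SE, n = 4 vineyards), which is 12.8-fold (limma, adjusted p = 0.017). PSP differed most, with vineyard means of 8.46 and 13.82, and CS least, with 11.36 and 13.6. At veraison the difference of this gene was 0.13, and at mid-ripening it was -4.95. Its neighbours by identifier, VIT_03s0088g00710 and VIT_03s0088g00690, differed by -3.16 ± 0.43 and -3.1 ± 0.31 (SE, limma, adjusted p = 0.019 and 0.013), with no overlap between the arrays of the years. The PR10 gene VIT_05s0077g01530 differed by -2.58 ± 0.47 (SE, limma, adjusted p = 0.037), and here the arrays overlapped, with 6.29 to 11.17 in 2007 and 11.05 to 14.02 in 2008. CS was nearly level for PR10, at 10.84 and 11.48, while AM stood at 8.35 and 12.05. Of 32 pathogenesis-related proteins, 11 fell and 0 rose (all probe sets, 1.95% and 1.73%), with a median of -1.22. Of the 16 members that were not named only through datasets of year differences, 9 fell. All of these 9 are among the positive ripening markers, which the study chose on the 2008 arrays, so they are no independent evidence. The list median was -1.87 in MN and -0.88 to -0.77 in the other vineyards. Osmotins VIT_02s0025g04260 and VIT_02s0025g04250 differed by -3.09 and -2.54, and the thaumatin VIT_02s0025g04270 by -2.11. Of the 11 calls, 0 were left without AM, 1 without MN and 3 without replicate B.

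All terpene and stilbene synthases with an identifier were called lower in 2007. All of them but 1 terpene synthase were named through the positive ripening markers, so they were not drawn at random from their families. The 9 terpene synthases differed by -3.66 to -2.19 (median, -2.94), and all of them were lower in each vineyard. VIT_18s0001g04480, a germacrene D synthase, ranged from 6.79 to 10.44 (median, 8.61) in 2007 and from 11.19 to 13.79 (median, 11.86) in 2008. The arrays of the years did not overlap, and the difference was -3.37 ± 0.25 (SE, n = 4, limma, adjusted p = 0.0077). The germacrene D synthase VIT_18s0001g04490 differed by -3.66 ± 0.29 (limma, adjusted p = 0.0077), and only 7 of its 12 arrays of 2007 were brighter than 95% of the random control probes, against 12 of 12 in 2008. Of the stilbene synthases, all 4 fell, by a median of -2.36. VIT_16s0100g00770 ranged from 4.4 to 7.85 (median, 6.08) in 2007 and from 7.88 to 10.64 (median, 8.73) in 2008, with a difference of -2.85 ± 0.27 (SE, limma, adjusted p = 0.011). In 2007, 5 of its 12 arrays were brighter than 95% of the random control probes, against 12 in 2008. Its 2007 means were 5.05 in AM and 5.07 in CS, and 7.21 in MN and 7.14 in PSP. At veraison the stilbene synthases stood the other way, with a list median of 0.76, and at mid-ripening it was -1.38. The terpene synthases kept 2 calls without AM and 2 without MN, and the stilbene synthases 0 without either. Direction and median held throughout, at -3.34 to -2.5 for the terpene and -2.65 to -1.95 for the stilbene synthases when a vineyard or a replicate was left out.

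Dirigent proteins, which guide the coupling of lignin and lignan precursors, fell together with them. VIT_06s0004g01020 ranged from 6.93 to 10.99 (median, 9.19) in 2007 and from 11.79 to 14.04 (median, 12.44) in 2008. The ranges did not meet, and the difference was -3.44 ± 0.27 (SE, n = 4, limma, adjusted p = 0.0079). Its neighbours by identifier VIT_06s0004g01010 and VIT_06s0004g01030 differed by -3.49 and -3.39. VIT_06s0004g01010, VIT_06s0004g01020 and VIT_06s0004g01030 differed by -5.01, -5.11 and -4.38 at mid-ripening and by -0.01, -0.21 and -0.38 at veraison. Of 22 phenylpropanoid and lignin enzymes, to which dirigent proteins were counted, 6 fell and 0 rose (all probe sets, 1.95% and 1.73%). Their median was -0.82, and 2 calls were left without AM and 1 without MN. Over the 14 members that were not named only through datasets of year differences, 4 fell and the median was -0.27. Those 4 include VIT_06s0004g01010, VIT_06s0004g01020 and VIT_06s0004g01030, which are also positive ripening markers of the study. The laccase VIT_18s0075g01030, an oxidase of the same pathway, fell by 2.08. Of 9 flavonoid and anthocyanin enzymes, 1 fell, and their median was -0.30.

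A cysteine proteinase and some of the protease inhibitors fell, whereas a serine carboxypeptidase (VIT_03s0091g01290) rose by 1.62. The proteinase is among the positive and the carboxypeptidase among the negative ripening markers of the study. The cysteine proteinase VIT_17s0000g09770 ranged from 6.4 to 9.22 (median, 7.54) in 2007 and from 9.65 to 12.93 (median, 11.09) in 2008. Its difference of -3.67 ± 0.31 (SE, limma, adjusted p = 0.0087) at harvest stood beside -0.55 at mid-ripening and -0.65 at veraison. Of 11 protease inhibitors, 5 fell and 0 rose (all probe sets, 1.95% and 1.73%), with a median of -1.01. Without AM, without CS or without MN, 0 calls were left. Of the 7 inhibitors not named only through datasets of year differences, 4 fell, and all of these are positive ripening markers. VIT_05s0020g05040, a potato-type proteinase inhibitor, stood at 7.37 to 10.35 in 2007 and 10.56 to 13.12 in 2008, and differed by -2.44 ± 0.33 (SE, limma, adjusted p = 0.019). Of 47 receptor-like kinases, 6 fell and 0 rose (median, -0.36), where 1.95% of all probe sets fell, and without replicate B, AM or CS none was called. Of the 33 kinases not named only through datasets of year differences, 3 fell, and all of these are positive ripening markers.

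**Figure D2:**
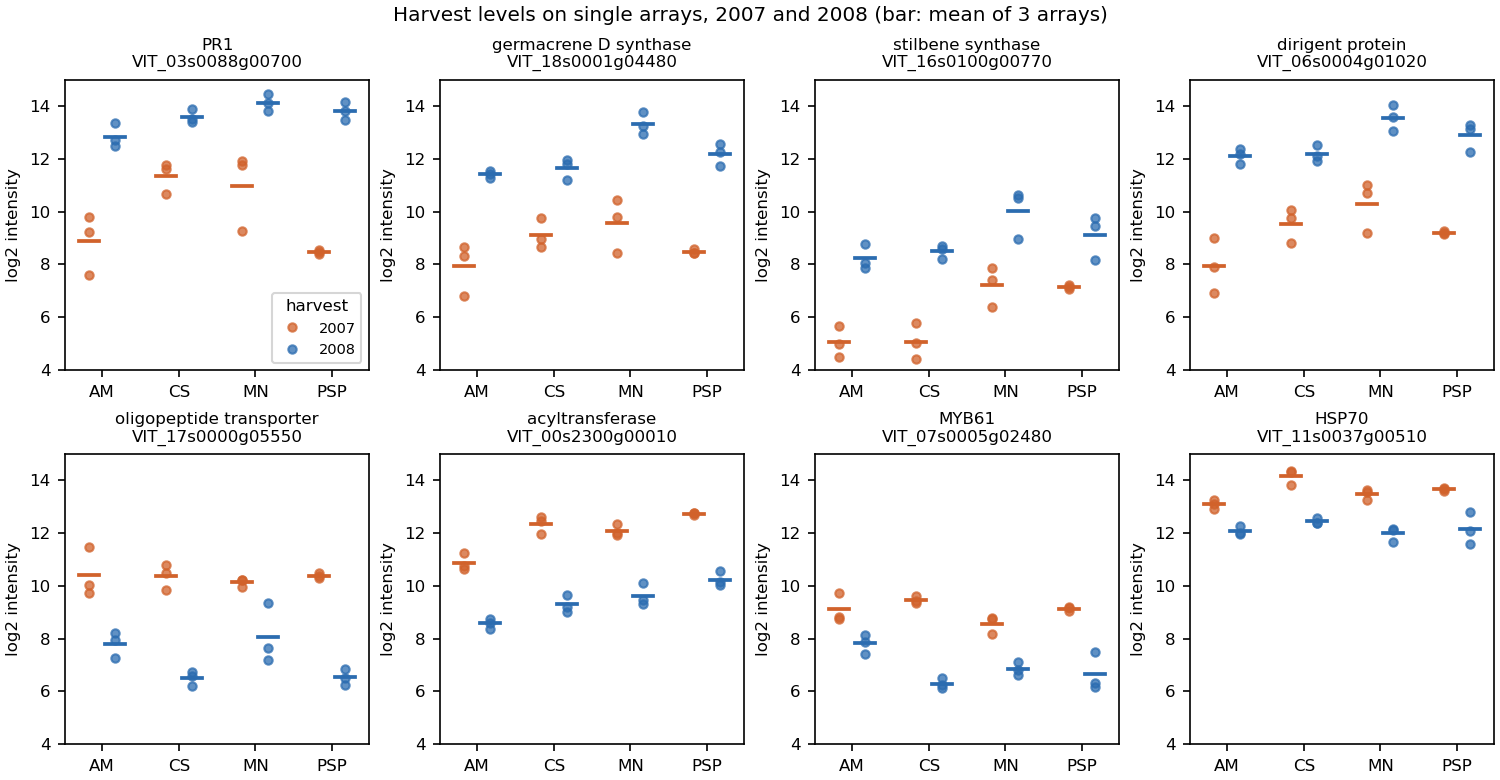
Log2 intensity of 8 genes on each of the 24 harvest arrays, by vineyard (x axis) and growth year (2007 orange, 2008 blue), with a bar at the mean of the 3 arrays. The upper row shows 4 genes that were lower in 2007 and the lower row 4 that were higher, and in each of the 8 panels no array of one year lies within the range of the other.

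Of the 8 largest rises among annotated genes that were brighter than 95% of the random control probes on all 12 arrays of 2007, 7 are among the negative ripening markers. VIT_17s0000g05550, a transporter of the proton-dependent oligopeptide family, ranged from 9.73 to 11.49 (median, 10.26) in 2007 and from 6.21 to 9.34 (median, 7.02) in 2008. All arrays of 2007 were above those of 2008, by 3.1 ± 0.34 on average (SE, n = 4, limma, adjusted p = 0.013), or 8.59-fold, and 7 of its 12 arrays of 2008 were brighter than 95% of the random control probes. The acyltransferase VIT_00s2300g00010, which is no ripening marker of the study, ranged from 10.63 to 12.75 in 2007 and from 8.36 to 10.57 in 2008. It differed by 2.57 ± 0.2 (SE, limma, adjusted p = 0.0077), and the differences at veraison and mid-ripening were 1.74 and 0.93. The ceramidase VIT_18s0001g00370, an enzyme of sphingolipid breakdown, was higher by 2.32 ± 0.22 (limma, adjusted p = 0.012), and 1 of its 12 arrays of 2008 was brighter than 95% of the random control probes. MYB61 (VIT_07s0005g02480), known in Arabidopsis as a regulator of carbon allocation, stood at 8.16 to 9.74 in 2007 and 6.13 to 8.15 in 2008, with a difference of 2.16 ± 0.32 (limma, adjusted p = 0.022). Only 4 of its 12 arrays of 2008 were brighter than 95% of the random control probes. The ankyrin repeat genes VIT_12s0059g00110 and VIT_12s0028g04000 were higher by 2.17 and 1.94, the alliin lyase VIT_18s0157g00090 by 2.01 and the glycosyltransferase VIT_13s0019g00240 by 1.84. These last 4 also lay above their 2008 levels at veraison, by 1.03 to 1.57, and 5, 10, 6 and 7 of their 12 arrays of 2008 were above the random control level.

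Of 14 photosynthesis and chlorophyll genes, 2 rose and 0 fell (median, 0.14), where 1.73% of all probe sets rose. Both are among the negative ripening markers counted above, which the study chose on the 2008 arrays. Without AM, without CS or without MN, 0 were called. PsbQ of the oxygen-evolving complex (VIT_00s0904g00010) stood at 9.34 to 10.17 in 2007 and 7.46 to 9.31 in 2008, a difference of 1.23 ± 0.21 (SE, limma, adjusted p = 0.032) without overlap. A ferredoxin (VIT_04s0008g04240) was higher by 1.74 ± 0.31 (limma, adjusted p = 0.035), and 1 of its 12 arrays of 2008 was brighter than 95% of the random control probes. Photosystem I subunit O (VIT_06s0080g00920) differed by 1.01 and was not called (limma, adjusted p = 0.079).

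Of 55 heat shock proteins and chaperones, 3 rose and 0 fell, where 1.73% of all probe sets rose, and the median was -0.03. HSP70 (VIT_11s0037g00510), which holds unfolded proteins, ranged from 12.9 to 14.37 (median, 13.62) in 2007 and from 11.57 to 12.81 (median, 12.15) in 2008. The arrays did not overlap, and the difference was 1.43 ± 0.2 (SE, n = 4, limma, adjusted p = 0.019). A small cytosolic class II heat shock protein (VIT_04s0008g01580) was higher by 1.3 ± 0.25 and HSP101 (VIT_17s0000g07190), which takes protein aggregates apart, by 1.05 ± 0.21 (limma, adjusted p = 0.04 and 0.047), each with overlapping arrays. The same 3 genes were higher in 2007 by 2.38, 2.03 and 1.56 at veraison and by 0.53, 0.22 and 0.5 at mid-ripening. At veraison the list median was 0.84. Of the 55 members, 29 were named only through datasets of year differences. HSP70 and HSP101 are also in the dataset that the study chose for year differences at veraison. The veraison values are therefore no independent evidence. Without AM, without CS or without MN, 0 of the 55 were called.

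Calls among genes of cell walls, sugars and regulators were few in number, but several lists were short, and 3.68% of all probe sets were called. Of 20 pectin-modifying enzymes, 3 fell, among them the pectinesterase VIT_15s0048g00510 (difference, -2.16 ± 0.32, limma, adjusted p = 0.023), but the list median was -0.02. Of the 6 members not named only through datasets of year differences, 2 fell, where 1.95% of all probe sets did. Both are positive ripening markers, which the study chose on the 2008 arrays, so they are no independent evidence. Without AM, without CS or without MN, 0 of the 20 were called. None of 15 xyloglucan endotransglucosylase/hydrolases, 9 cellulose synthases or 7 expansins was called. The xyloglucan endotransglucosylase/hydrolases had a median of 2.05 in AM and of -0.12 to 0.54 in the other vineyards, and the list median of 0.69 was 0.09 without AM. Of 8 genes of sugar transport and sucrose metabolism, 3 fell (median, -0.63), a larger share than the 1.95% of all probe sets. Of the 5 members not named only through datasets of year differences, 1 fell. Of the 3 calls, 0 were left without AM or MN and 1 without CS, PSP or replicate B. The cell wall invertase VIT_09s0002g02320, which cleaves sucrose outside the cell, stood at 9.21 to 10.83 in 2007 and 10.96 to 12.16 in 2008, and differed by -1.54 ± 0.24 (SE, limma, adjusted p = 0.025). Among regulators, NAC25 (VIT_00s0375g00040) stood at 11.02 to 12.79 in 2007 and 13.39 to 14.28 in 2008, a difference of -1.92 ± 0.22 (limma, adjusted p = 0.014) that was -3.05 at veraison. A dormancy/auxin associated gene (VIT_09s0002g00700) fell by 2.5 with an SD of 0.24 between vineyards. The ethylene-responsive gene VIT_13s0019g00540 was above the random control level on 0 of 12 arrays of 2007 and on 12 of 12 of 2008, and was at least 3.21-fold lower in 2007 (limma, adjusted p = 0.0077). That fold is a bound, since the 2007 arrays were set no lower than the level of the random controls. NAC25, the dormancy/auxin gene, the ethylene-responsive gene and the invertase were named through datasets that the study chose for differences between growth years. Of the other lists, 1 gene of 26 ethylene and AP2/ERF genes, 1 of 30 auxin genes, 3 of 68 histones and cell cycle genes and 2 of 22 cytochrome P450s fell, where 1.95% of all probe sets did. None of the ethylene, auxin and histone calls was among members named other than through datasets of year differences (0 of 12, 0 of 15 and 0 of 41). Of the remaining lists, 0 of 10 abscisic acid genes, 28 disease resistance proteins, 45 redox enzymes and 7 aquaporins and ion transporters were called. Of 15 MYB factors 2 rose and 1 fell, and of 49 lipid, wax and cuticle genes 1 rose and 3 fell (all probe sets, 1.73% and 1.95%). Without AM or MN, 0 of either list were called. The MYB factors that rose, MYB61 and MYB102 (VIT_00s0203g00070), are negative ripening markers. The MYB factor that fell was named only through a dataset of year differences.

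**Figure D3:**
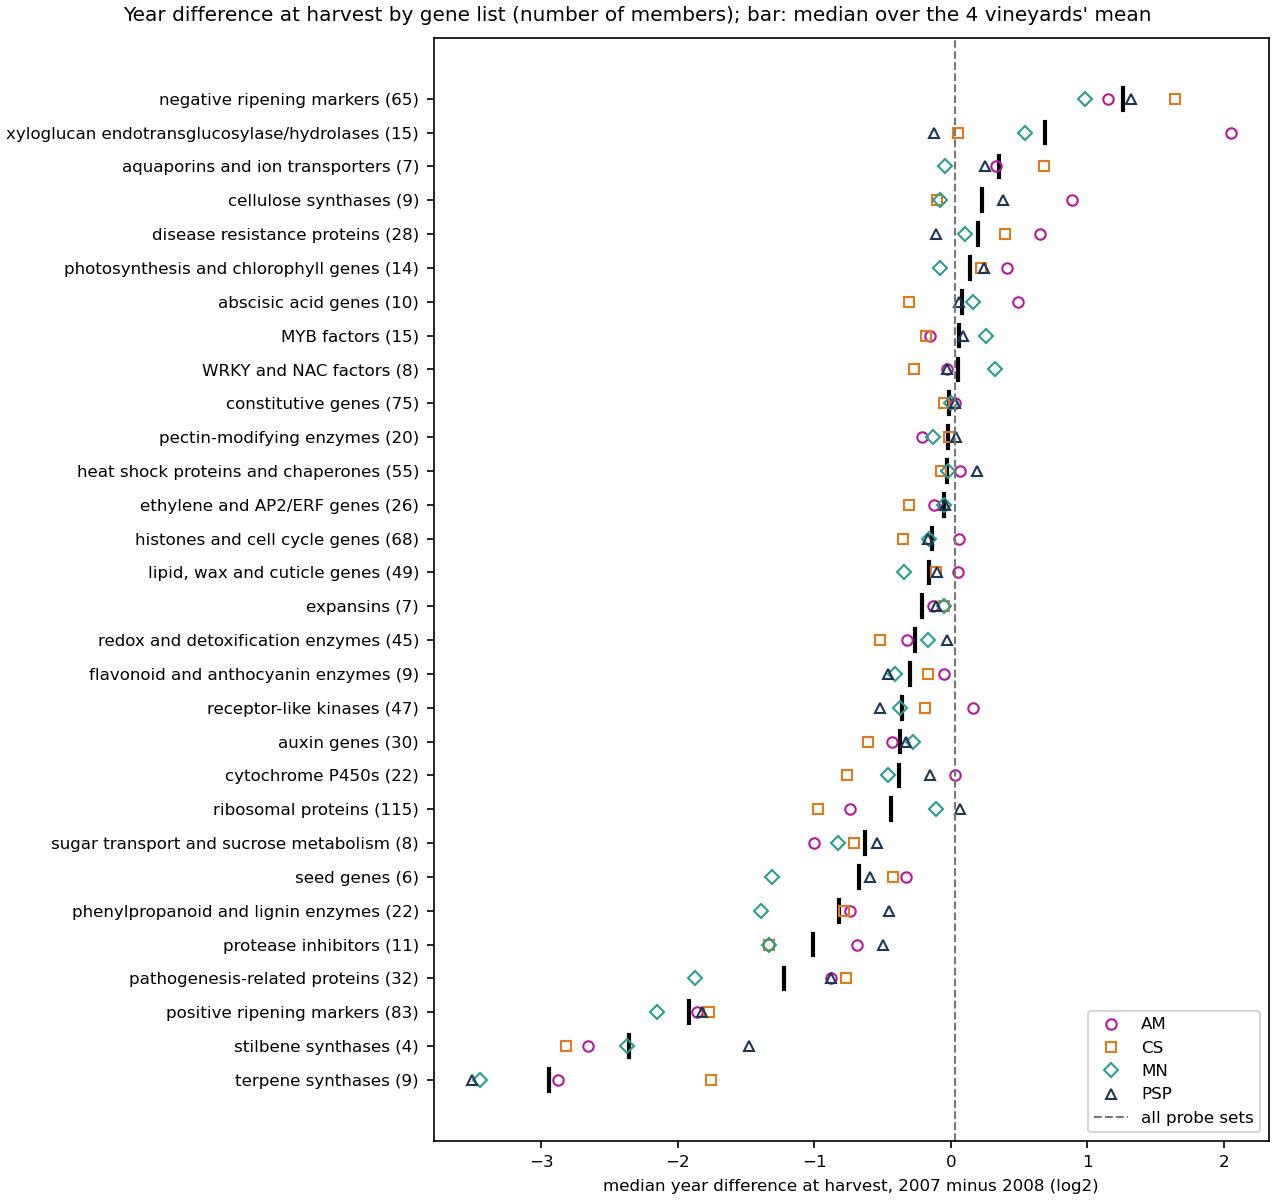
Median year difference at harvest (2007 minus 2008, log2) of 30 gene lists in each vineyard (open symbols), with a bar at the median of the 4-vineyard means and a dashed line at the median of all probe sets (0.03). Terpene synthases, stilbene synthases and positive ripening markers lie far to the left in every vineyard, whereas the ribosomal proteins lie to the left in AM (-0.74) and CS (-0.97) but not in MN (-0.11) and PSP (0.07).

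Seed genes were measured as a sign of other tissue. Of 6 genes matched, VIT_12s0034g01890 and VIT_12s0034g01870, both cupins named only through datasets of year differences, fell by 1.36 and 1.24, and a legumin (VIT_12s0034g01950) differed by -1.38 without being called (limma, adjusted p = 0.068). The remaining 3 differed by -0.10 to 0.62. The list did not match VIT_12s0034g01900, a globulin-like protein, and VIT_12s0034g01910, a glutelin, whose identifiers lie close to those of the cupins. Both were called lower, with differences of -1.56 and -1.42 (limma, adjusted p = 0.015 and 0.024). They came to notice among the called genes and were likewise named only through datasets of year differences. Of the 3 seed genes not named only through such datasets, the legumin included, 0 were called, and their median was -0.10. The summed intensity of the 6 genes was 13.06 to 13.69 on the log2 scale in 2007 and 13.59 to 15.17 in 2008, and the lowest value of any of them was 7.60. The part of seed RNA in the falls was not tested.

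The year difference ran opposite to the last step of ripening. This step was taken from mid-ripening to harvest in the 7 other vineyards of 2008, on 42 arrays that are not among the 24, although 5 of them share a slide with some of these. Across the 29545 probe sets, the year difference and the step had a Pearson's r of -0.67 and a Spearman's rho of -0.56, which describes probe sets and not independent replicates. The 2008 harvest season enters both values with opposite sign, so anything particular to it makes r more negative. The step of 2006, given below, does not share it. In single vineyards r was -0.66 to -0.40. For the earlier step from veraison to mid-ripening, r was 0.00. Of the 512 sets called higher in 2007, 504 (98.4%) decreased over the last step, against 50.6% of all sets, and of the 575 called lower, 565 (98.3%) increased, against 49.4%. The median step was -0.95 for the former and 1.03 for the latter. In the same 4 vineyards in 2006, r with the step was -0.42 (rho, -0.31), and 448 (87.5%) and 480 (83.5%) of the called sets moved in the corresponding direction, against 45.8% and 54.2% of all sets. The acyltransferase VIT_00s2300g00010, for example, had a step of -1.51 and the cysteine proteinase VIT_17s0000g09770 one of 3.72.

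**Figure D4:**
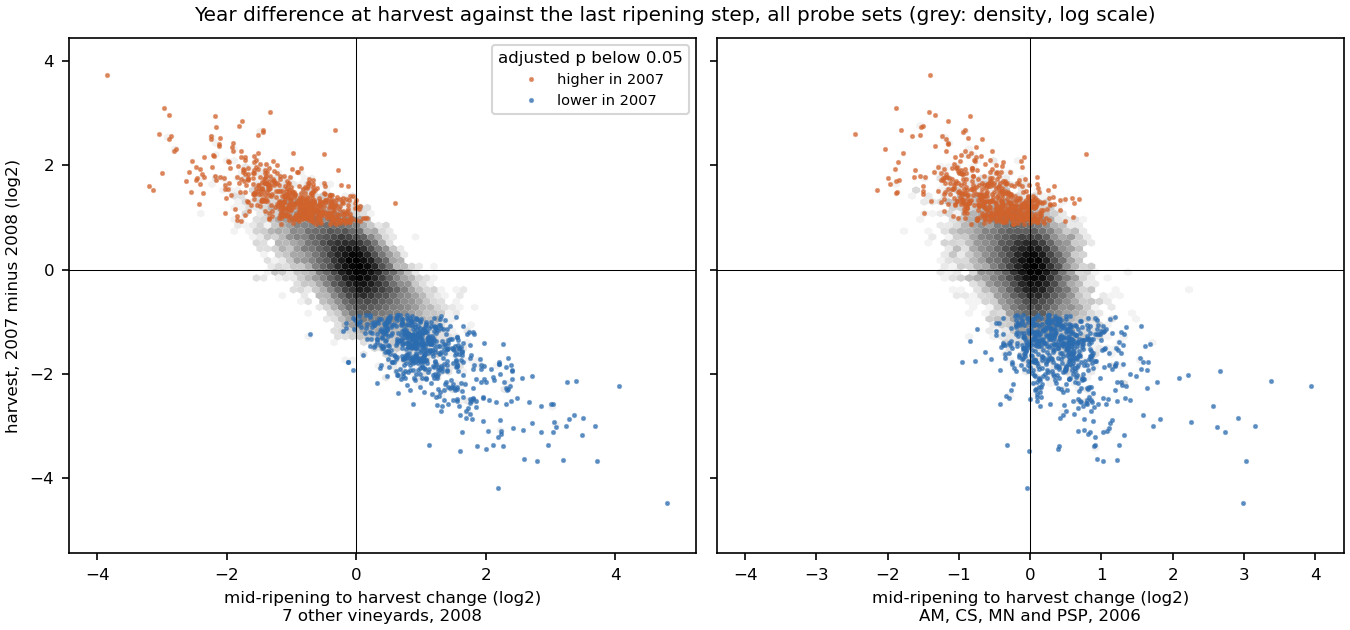
Year difference at harvest (y axis, 2007 minus 2008, log2) against the change from mid-ripening to harvest (x axis, log2) in 7 other vineyards in 2008 (left) and in AM, CS, MN and PSP in 2006 (right), with all 29545 probe sets as grey density on a log scale and called sets as points. Nearly all sets called higher in 2007 lie left of 0 and nearly all called lower lie right of 0, and the cloud is narrower on the left (r = -0.67) than on the right (r = -0.42).

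Whole profiles were farther apart between the years than within a year on average. The distance between 2 means was 1 minus Pearson's correlation over all probe sets. Between years it averaged 0.0397 and within a year 0.0243, and the difference of 0.0154 was the largest of the 35 possible splits of the 8 means (exact permutation test, one-sided, p = 0.0286, the smallest that these splits allow). With the splits held to swaps of the years within vineyards, an alternative added after seeing the data, p was 0.125, the smallest that 8 splits allow. Single pairs overlapped. MN in 2007 was nearer to PSP in 2008 (0.0215) than to any other vineyard of 2007 (PSP, 0.0229), and PSP in 2007 was nearer to PSP, CS and AM in 2008 (0.0326, 0.0362 and 0.0386) than to AM and CS in 2007 (0.0434 and 0.0430). Vineyards were farther apart in 2007 (mean, 0.0312) than in 2008 (0.0174). This spread had a shape, as AM and CS were 0.0181 apart and MN and PSP 0.0229, whereas pairs across these groups were 0.0291 to 0.0434 apart. The harvest berries of 2007 were nearer to the mid-ripening berries than to the harvest berries of 2008 of their own vineyard in all 4 vineyards. These 2 distances were 0.0362 and 0.0416 in AM, 0.0327 and 0.0502 in CS, 0.0253 and 0.0330 in MN, and 0.0271 and 0.0326 in PSP. The harvest berries of 2006 were nearer to harvest 2008 in each vineyard, with 0.0388 against 0.0413 in AM, 0.0114 against 0.0188 in CS, 0.0237 against 0.0274 in MN and 0.0191 against 0.0219 in PSP. The study considered its samples uniformly ripe among years at each stage. Its total acidity at harvest was lower in 2007 than in 2008 in all 4 vineyards. Its sugar reading was lower in 2007 in AM, CS and MN and higher in PSP. Whether ripeness differed between the years was not tested.

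The size of the year difference also depended on the vineyard. On the 24 arrays, limma found a difference between vineyards in the year effect for 18033 probe sets (61%), and 490 of the 1087 called sets were among these. Of the 18033, 13612 had opposite signs among vineyards. Opposite signs were also common over all probe sets, of which only 18% were higher and 14.3% lower in all 4 vineyards. The 3 arrays of each vineyard and year shared a slide that held no other of the 24, except for 1 array of PSP in 2008, so that slide and vineyard cannot be told apart here. Among the ribosomal proteins, 104 of 115 differed between vineyards. The study counted many ribosomal proteins among the genes it chose for differences among vineyards in 2008, a dataset also used for naming here. The share of 104 of 115 is therefore no independent evidence. Their median difference was -0.74 in AM and -0.97 in CS, but -0.11 in MN and 0.07 in PSP, and 0 of the 115 were called over the 4 vineyards. RPS30 (VIT_11s0016g02690), a protein of the small ribosomal subunit, stood at 11.42 and 11.32 in AM and CS in 2007 and at 13.15 and 13.05 in MN and PSP. In 2008 its levels were 13.56, 13.45, 13.28 and 13.27, and the year effect differed between vineyards (limma, adjusted p = 1.7e-06). A superoxide dismutase (VIT_14s0030g00830), which removes superoxide, did likewise, with 12.61 and 12.21 in AM and CS and 13.56 and 13.6 in MN and PSP in 2007, and with 13.74 to 13.9 in 2008 (limma, adjusted p = 3.1e-06). The random control probes moved with this split. Their upper 5% began at 7.17 to 7.43 on the AM and CS arrays of 2007 and at 6.30 to 6.93 on those of MN and PSP, against 6.44 to 7.08 and 6.94 to 7.46 in 2008. Their part in the result was not tested.

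The year difference at harvest was also set against that at earlier stages. Against veraison, 25 probe sets (0.0846%) differed, of which 10 were among the harvest calls. Against mid-ripening 0 differed (limma, with 4978 at an unadjusted p below 0.05, where against veraison there were 5368). Of the genes named through this comparison, VIT_17s0000g06780, a flavin monooxygenase-like gene, was higher in 2007 by 2.17 at veraison and differed by -0.86 at harvest (limma, adjusted p = 0.047 for the change). VIT_17s0000g06780 got its identifier only through a dataset that the study chose for year differences in levels taken relative to veraison. Its change is therefore no independent evidence. BAG5 (VIT_01s0146g00150), of a family of HSP70 partners, was higher by 3.56 at veraison and differed by 0.46 at harvest (limma, adjusted p = 0.047 for the change). The 25 calls were 0 without any single vineyard and without replicate B. Of the sets called higher at harvest, 412 of 512 were also higher at veraison and 453 at mid-ripening, with median differences of 0.59 and 0.50. Of those called lower, 368 of 575 were also lower at veraison and 525 at mid-ripening, with medians of -0.28 and -0.82.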

How the data were processed

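RNA was measured on NimbleGen single-color arrays. Each probe's deposited value is a linear Cy3 intensity, which the authors quantile normalized over all arrays, and the submitters' processing notes name RMA. Further upstream detail is not given in the sources used here. No background was subtracted. Probe numbers were tiled into 29545 probe sets, and the intensities of a set's probes were averaged and taken to log2. Identifiers were assigned to 5239 sets by matching their profiles to the study's supplementary datasets (correlation of at least 0.95, or 0.99 with 12 columns, and a lead of 0.01), and 119 of these by stage averages (21 of 21 checked genes were right). No sequence is shown, because no table used here pairs the identifiers with one. The study's own comparisons were not used.

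Tests were run with limma 3.58.1 (R 4.3.3), which was tested on simulated data, with Benjamini-Hochberg adjustment. The members and gene lists were chosen with earlier results of these data known, and 3 list patterns (disease resistance, ethylene, lipid) were narrowed after seeing that they matched unrelated products. Lists received no test. Named genes were the 8 largest rises and 8 largest falls among annotated called genes with 1 sign in all vineyards, genes the study names by identifier, up to 3 genes of smallest p for each list, and the 3 largest changes against an earlier stage. The osmotins and the thaumatin were named after their values were seen. A slide label lacking its first digit was completed. Alternatives were other probe summaries, an offset, normalizations, filters, thresholds, blocks, the methods' t-test and leaving out vineyards, replicates or the PSP array of 2008 on another slide.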

Additional observations from a re-analysis of the deposited data

Results flagged for a closer look

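Among 230 sets of 4 vineyard values, 8 held a vineyard far from the other 3, fewer than the 11.5 that chance gives at 1 in 20. VIT_17s0000g05550, the oligopeptide transporter, was at 10.14 in MN in 2007 and at 10.37 to 10.42 elsewhere. In 2008 MN was the far value for VIT_02s0025g01850, a cellulose synthase-like gene (6.08, against 5.38 to 5.41), for VIT_00s0203g00070, MYB102 (5.54, against 5.15 to 5.21), and for VIT_18s0076g00370, the ribosomal protein P2 (11.69, against 10.85 to 10.97). In 2007 CS was the far value for VIT_05s0020g04800, histone H1 (9.42, against 10.71 to 10.87), and VIT_05s0049g01990, a GDSL lipase (7.00, against 7.64 to 7.68), and AM for VIT_15s0045g00370, a phospholipase C (9.13, against 10.26 to 10.36). The median year difference of the pathogenesis-related proteins was -1.87 in MN and -0.88 to -0.77 in the other vineyards.

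Effects also differed between vineyards or stages. The year difference of 18033 probe sets varied between vineyards, and that of 25 differed from veraison. VIT_07s0031g02060, a cellulose synthase, differed by 1.94 in CS and by -0.25 in MN, and VIT_01s0146g00150, BAG5, by 1.53 in CS and by -0.75 in AM (limma, adjusted p = 5.9e-05 and 1e-05 between vineyards).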

How the results depend on the processing

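The count of 1087 genes called between the years depended on the model and the number of vineyards. Leaving out a vineyard or a replicate gave 23 to 1056. It was 1700 without the vineyard term and 22 at a threshold of 0.01. Fits on the 24 arrays gave 14316 calls, 11771 with a replicate block and 5716 with the slide as a random block. These fits treat arrays of 1 vineyard and year as replicates, so their calls concern these samples. The letters A, B and C do not pair the samples, since same-letter arrays of 2 years correlated at -0.08 to 0.191. The block gave 16568 in place of 18033 probe sets that differed between vineyards. The methods' t-test gave 1513 at their unadjusted threshold and 0 after Benjamini-Hochberg adjustment, with 5175 at an unadjusted p below 0.05. Of the 61 named genes that were called, 9 stayed called without AM, 23 without CS, 11 without MN, 47 without PSP and 44 to 57 without a replicate, and none of the 61 changed sign. Of the 1087, 10 had the opposite sign with the probe median and 7 with median polish.

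The 25 sets that differed from veraison became 182 with the probe median, 258 with median polish, 243 with an offset of 50, 47 without dim genes, 0 with the random probe level subtracted, 0 at a threshold of 0.01 and 0 to 138 with a vineyard or replicate left out. The distance of 0.0154 was 0.0110 to 0.0195 when a vineyard or replicate was left out, and without a vineyard its p was 0.1, the smallest that 10 splits allow. With splits held to swaps within vineyards, chosen after seeing the data, the difference stayed 0.0154 and p was 0.125, the smallest that 8 splits allow.

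The list medians moved as follows. Expansins went from -0.21 to -0.28 with the probe median, -0.42 with median polish, -0.27 without dim genes and -0.24 to -0.09 with a vineyard or replicate left out. Pectin-modifying enzymes went to -0.19 without dim genes. Leaving out a vineyard or replicate gave -0.10 to 0.08 for ethylene genes, -0.34 to -0.04 for receptor-like kinases and -2.08 to -1.73 for positive ripening markers. Without AM, the medians of xyloglucan endotransglucosylase/hydrolases and disease resistance proteins went from 0.69 to 0.09 and from 0.20 to 0.04. Without replicate B, that of cellulose synthases went from 0.23 to 0.44 and that of cytochrome P450s from -0.38 to -0.17. Flavonoid enzymes stood at -0.30, and between -0.42 and -0.12 with a vineyard or replicate left out. With the offset, protease inhibitors stood at -0.50, positive markers at -1.71 and negative markers at 0.91. The comparison with mid-ripening gave 0 under each alternative tried. Precision is limited by 3 arrays per vineyard and year and by random probes, whose upper 5% overlapped between the years.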

Other observations

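Some called genes not described above share a known role, and they were picked after their values were seen and no group was tested. Genes of DNA replication were lower in 2007, namely PROLIFERA (VIT_07s0005g01430, -1.81), a component of the replicative helicase, MCM6 of the same helicase (VIT_00s0184g00040, -1.18), and subunit B of DNA polymerase epsilon (VIT_14s0006g00120, -1.14). Gibberellin receptors VIT_15s0048g01390 and VIT_15s0048g01350 differed by -1.49 and -1.26, and copper amine oxidases VIT_05s0020g03280 and VIT_05s0020g03260 differed by -2.5 and -1.85. Beta-carotene hydroxylase (VIT_02s0025g00240), an enzyme of xanthophyll synthesis, differed by -1.48. Most of these were named through datasets chosen for differences between growth years, and PROLIFERA and VIT_05s0020g03280 are also among the positive ripening markers.

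Higher in 2007 were ACD1 (VIT_06s0004g00640, 1.5), which opens the ring of chlorophyll during its breakdown, polyphenol oxidase II (VIT_00s0480g00070, 1.79), which causes browning, the auxin receptor TIR1 (VIT_00s0181g00040, 1.26) and a ClpB chaperone (VIT_03s0180g00310, 1.3). The homeobox gene HB13 (VIT_01s0026g01950) was higher by 1.49 and Lateral organ boundaries protein 1 (VIT_15s0046g00230) by 1.86. ACD1, polyphenol oxidase II, HB13 and Lateral organ boundaries protein 1 are among the negative ripening markers, which the study chose on the 2008 arrays.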
